A study of Mus musculus with 7 samples.

Results

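The comparison set 1 papillary carcinoma of the mouse mammary gland against 3 control mammary glands. It was chosen by the tissue label alone, and took 4 of the 7 RNA-seq libraries of the series (1 tumour, 3 glands). The study profiled control glands and mammary tumours of mice that carry an ECD transgene. ECD (Ecdysoneless, mouse gene Ecd) is a protein needed for cell cycle progression that also takes part in pre-mRNA splicing. The tumour, titled T4, is labelled as an ECD transgenic tumour, and RNA came from a central piece of it. The glands are labelled as controls, with no treatment of either group. The sources used here do not give the strain, age, parity or stage of the animals, nor the promoter and species of the transgene. With 1 tumour, the values below describe that library, and no test across tumours was possible.

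The mouse mammary gland is a tree of epithelial ducts set in a pad of fat. Its inner luminal cells carry keratins 8 and 18 and, in late pregnancy and lactation, make the caseins and whey proteins of milk under prolactin and STAT5 signalling. Its outer basal (myoepithelial) cells carry keratins 5 and 14, the factor p63 and smooth muscle proteins. Papillary carcinomas grow as fronds of epithelium on thin stromal cores. Notch receptors act in luminal cells, where a ligand on a neighbouring cell releases the receptor's inner part to switch on Hes and Hey genes. Cyclin D1 drives cells from G1 into S phase.

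Depth was 28638143 counts in the papillary library and 5148438, 35631279 and 34079708 counts in glands 1, 2 and 3, the order in which gland values are given throughout. Levels are counts per 1000000 (CPM) after scaling by trimmed means, and 1 count stood for 0.0357 CPM in the tumour and 0.328, 0.0311 and 0.0462 CPM in the glands. The mitochondrial genome took 32.6% of counts in the tumour and 64.8, 48.4 and 54.9% in the glands. All 3 glands held RNA of fat cells and of epithelium (Adipoq 292, 353 and 372 CPM, Krt18 49.3, 38.8 and 72.7 CPM). No gene list defines a papillary growth form, so the histological label was not checked. The glands differed among themselves: 19 skeletal muscle genes summed to 53809, 111 and 88919 CPM, and 20 lymphocyte genes to 27.3, 284 and 38.1 CPM. In the tumour these sums were 11.1 and 77.5 CPM. The part of these other tissues in the results below was not tested beyond leaving out each gland in turn.

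Each gene is therefore described by its log2 difference (tumour minus the mean of the glands, log2 CPM) and by its gap, the log2 distance from the tumour to the nearest gland. A gene was counted as higher or lower where the gap was at least 1, which is 2-fold, and also at least as wide as the range of the 3 glands. Of 17892 genes compared, 1891 were higher (10.6%) and 2125 lower (11.9%) in the papillary tumour than in every gland. Over all genes the median log2 difference was 0.07 and the median range of the glands was 1.13, so the spread between glands was wide for many genes. By any amount, the tumour lay above all 3 glands for 37.9% of the genes and below them for 31.2%. The counts were 2888 higher and 3437 lower without gland 1, the shallowest gland. They were 2490 and 2873 without gland 2, and 2567 and 2683 without gland 3, and fewer glands make the rule easier to meet. Each list count below is to be read against these numbers and the shares of 10.6 and 11.9%. In one alternative, called thinning below, mitochondrial genes were left out and all 4 libraries were reduced at random to about the non-mitochondrial total of gland 1, which is 1810936 counts.

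**Figure D1:**
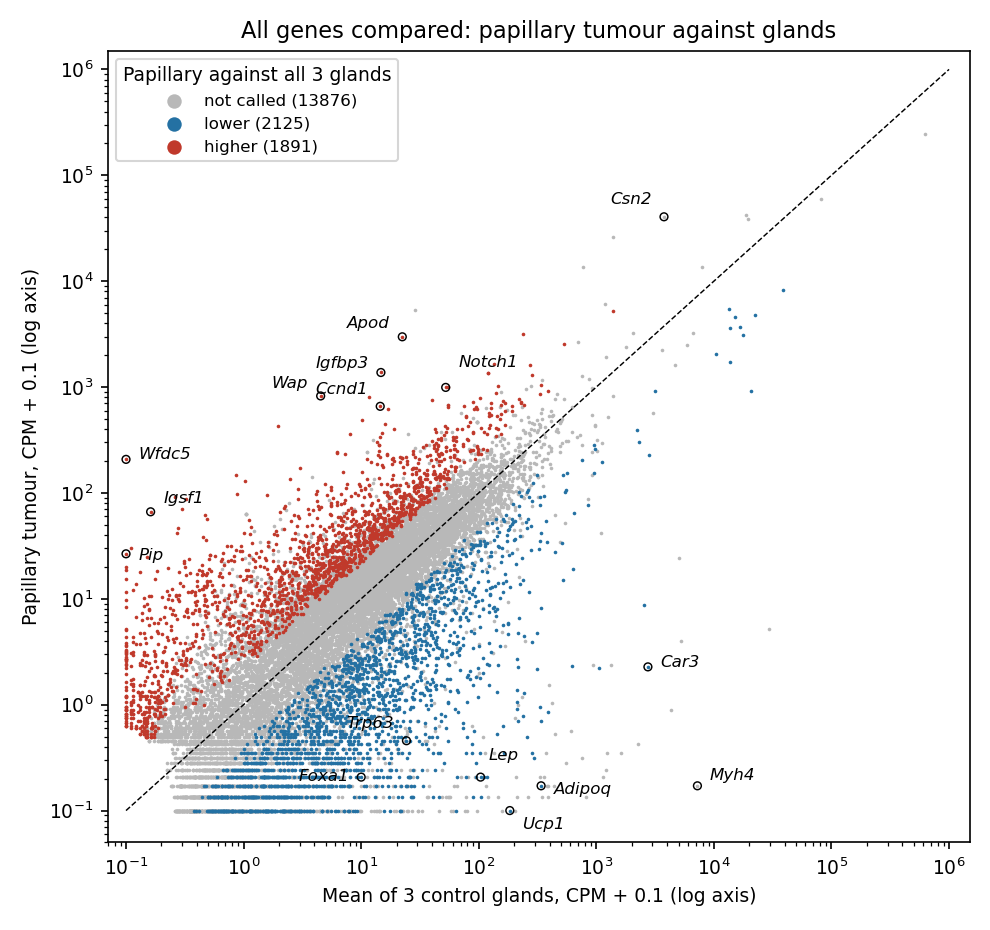
Level of each of 17892 genes in the papillary tumour (vertical) against the mean of the 3 control glands (horizontal), as CPM + 0.1 on log axes, with the dashed line at equal level. Red points (1891) were higher and blue points (2125) lower than all 3 glands by the gap rule. Csn2 and Myh4 lie far from the line but are grey, since the glands differed more among themselves.

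The Ecd gene itself stood close to the glands. Its level was 11.8, 14.5 and 18.6 CPM in the glands and 20.2 CPM in the tumour, a gap of 0.12, and 15.8 to 22 CPM in the other 3 tumour libraries. Whether reads of the transgene can be assigned to the mouse gene depends on its species, so this value does not check the label. Of 13 genes of ECD and its partners in splicing and in the R2TP chaperone complex, 1 was higher: Eftud2, a GTPase of the U5 spliceosome particle, had 10.2, 13.6 and 16 CPM in the glands and 42.5 CPM in the tumour. That share is near the 10.6% of all genes, while 11 of the 13 lay above all 3 glands by some amount. Prpf8, the core protein of the same particle and a partner of ECD, had 71.9, 130.3 and 172 CPM in the glands and 232 CPM in the tumour, a gap of 0.43.

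Milk genes set the papillary tumour apart from the glands in level. The 16 milk and lactation genes took 13.8% of the tumour's non-mitochondrial counts (exact 95% interval 13.8 to 13.9%, counting error only), against 1.99%, 1.87% and 0.139% in the glands. Their median log2 difference was 4.54. 6 of the 16 were higher by the gap rule, none was lower, and 14 lay above all 3 glands by some amount, against 37.9% of all genes. Without gland 3, whose milk genes were lowest, 13 of 16 were higher and the median was 3.05.

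Csn2, beta-casein, had 5516, 5685 and 87.4 CPM in the glands and 40532 CPM in the tumour. The tumour lay above every gland, but glands 1 and 2 stood so far above gland 3 that the glands' range, 6.02, exceeded the gap of 2.83. Csn1s1 and Csn1s2a, alpha-caseins, were likewise lowest in gland 3, with 13659 and 26124 CPM in the tumour and at most 1218 and 2571 CPM in a gland. Csn1s2b, another alpha-type casein, had 0.328, 0.342 and 0 CPM in the glands and 87.9 CPM in the tumour. It passed the filter only through the tumour, so the number of milk genes higher is partly set by the filter. Wap, whey acidic protein, had 4.93, 8.11 and 0.231 CPM in the glands and 824 CPM in the tumour, a log2 difference of 8.39. Glycam1, a milk mucin, had 7.55, 77.8 and 0.0462 CPM in the glands and 5291 CPM in the tumour. Its gap was narrower than the glands' range, so it was not counted. Olah, a thioesterase that sets the chain length of milk fat, and Cel, the bile-salt lipase of milk, were higher, with 74.5 and 305 CPM in the tumour. Lalba, the lactose synthase subunit alpha-lactalbumin, did not follow: 58.5, 39.8 and 1.85 CPM in the glands and 44.4 CPM in the tumour, inside their range. In the other tumour libraries Csn2 ranged from 0.299 to 614 CPM and Wap from 0 to 17.6 CPM, all below the papillary tumour.

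STAT5, the factor that prolactin signalling activates, recognises the palindrome TTCNNNGAA, which reads the same on both strands. RefSeq promoters (build GRCm38.p6; the 250 bases before the start) were in the table used for 12 of the 16 milk genes, and 3 of the 12 held the motif (25.0%), against 7.02% of all 32851 promoters. The 3 are shown because they belong to milk genes with high levels in the tumour, together with Pip, the secreted gland gene with the widest gap. Capitals mark each match. Csn2 lies on the minus strand at chr5:87699426-87699675, Csn1s1 on the plus strand at chr5:87665958-87666207, Glycam1 on the minus strand at chr15:103565082-103565331 and Pip on the plus strand at chr6:41847299-41847548.
Csn2: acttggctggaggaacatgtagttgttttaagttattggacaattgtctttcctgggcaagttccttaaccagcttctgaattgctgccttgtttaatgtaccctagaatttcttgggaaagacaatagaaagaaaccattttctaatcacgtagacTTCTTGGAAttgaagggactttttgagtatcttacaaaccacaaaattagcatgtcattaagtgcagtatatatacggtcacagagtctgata
Csn1s1: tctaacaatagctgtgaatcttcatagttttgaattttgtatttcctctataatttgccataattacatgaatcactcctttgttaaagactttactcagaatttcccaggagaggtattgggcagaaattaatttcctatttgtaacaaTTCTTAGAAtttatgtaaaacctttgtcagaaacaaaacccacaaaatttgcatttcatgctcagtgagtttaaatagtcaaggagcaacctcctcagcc
Glycam1: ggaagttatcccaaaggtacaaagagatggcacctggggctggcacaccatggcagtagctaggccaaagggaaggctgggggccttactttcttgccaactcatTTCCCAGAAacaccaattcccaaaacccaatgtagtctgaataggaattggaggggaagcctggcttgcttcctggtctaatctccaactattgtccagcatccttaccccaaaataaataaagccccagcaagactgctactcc
Pip: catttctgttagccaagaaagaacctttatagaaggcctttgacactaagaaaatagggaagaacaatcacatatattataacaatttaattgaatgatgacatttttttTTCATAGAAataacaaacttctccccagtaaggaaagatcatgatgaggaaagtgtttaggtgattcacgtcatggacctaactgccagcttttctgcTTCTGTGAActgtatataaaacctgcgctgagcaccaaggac
The match begins 93 bases before the start in Csn2, 100 in Csn1s1 and 145 in Glycam1, and Pip holds 2 matches, 140 and 42 bases before its start. Wap, Lalba and Csn1s2a held no match within these 250 bases. Of 24 secreted gland genes with a promoter available, Pip among them, 4 held the motif (16.7%). The list shares count genes with a match in any of their promoters, while the 7.02% counts single promoters. A match describes letters and shows no binding.

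Some other secreted proteins of glandular epithelium were higher as well. Of 31 listed genes 17 passed the filter on low counts, of which 9 were higher and 1 lower, against 10.6 and 11.9% of all genes. Their median log2 difference was 3.22, or 3.28 with the 3 genes at 0 in 1 group set at their bound. Some of these genes, such as Pip and Wfdc12, passed the filter only through the tumour. The number higher and the median are therefore partly set by the filter. Pip, prolactin-induced protein, had 0 counts in all 3 glands and in the other 3 tumours, and 26.5 CPM (743 counts) in the papillary tumour. Against a floor of 3 counts over the glands, that is at least 502-fold higher. Lpo, the lactoperoxidase of milk, saliva and tears, had 0.985, 0.0622 and 0.0924 CPM in the glands and 35.8 CPM in the tumour. Lcn2, an iron-sequestering lipocalin, had 128, 190.3 and 85.4 CPM in the glands and 1641 CPM in the tumour. The mucins Muc1 (10.8, 15.9 and 3.28 against 157 CPM) and Muc4 (26.3, 18.3 and 18.8 against 195 CPM) were higher. Muc16, another membrane mucin, was lower: 7.55, 4.13 and 4.62 CPM in the glands and 0 counts in the tumour, at least 42.1-fold. Dcpp1, Dcpp2 and Dcpp3, salivary-type proteins from a family of near copies, spanned 0 to 20307 CPM (Dcpp2) in the other tumours and had 3, 0 and 0 counts in the papillary tumour.

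Luminal genes were higher than in all glands for 11 of 24 and lower for 2, against 10.6 and 11.9% of all genes (median log2 difference 2.498). Without gland 1, 19 of 24 were higher, where 2888 of all 17892 genes were. Krt8, a keratin of luminal cells, had 38.8, 31.6 and 58 CPM in the glands and 293 CPM in the tumour. Its partner Krt18 had 49.3, 38.8 and 72.7 CPM in the glands and 413 CPM in the tumour. Krt19, a keratin of simple epithelia, had 24.6, 20.9 and 73.4 CPM in the glands and 748 CPM in the tumour. Aldh1a3, a retinal dehydrogenase of luminal progenitors, had the widest luminal gap (4.83): 4.93, 12.5 and 6.38 CPM in the glands and 357 CPM in the tumour. Cd14, a pattern receptor also found on luminal progenitors and on macrophages, had 2.96, 6.43 and 6.84 CPM in the glands and 114 CPM in the tumour. Elf5, the factor that directs alveolar cells towards milk secretion, had 142, 45.1 and 24.7 CPM in the glands and 563 CPM in the tumour, above every gland but with a gap (1.99) within their range. Epcam and Cdh1, which join epithelial cells, had gaps of 0.87 and 0.72 and were not counted.

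Some genes of the luminal list lay at the other end. Foxa1, which opens chromatin for the oestrogen receptor, had 8.54, 7.21 and 14 CPM in the glands and 3 counts (0.107 CPM) in the tumour. Over the pooled counts of the glands this was 92.1-fold lower (counting interval 31.3 to 448), exact at 95% and for counting error only. Prom1, a marker of hormone-sensing luminal cells, had 3.28, 7.02 and 21.5 CPM in the glands and 1 count in the tumour.

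Hormone receptors and their targets lay on both sides of the glands. Of 15, 8 were below all 3 glands by some amount (31.2% of all genes were), 4 above them and 3 within them. By the gap rule none was higher and 3 were lower, against 11.9% of all genes, with 5 lower at a prior count of 0.5. The number lower was 5, 6 and 5 without gland 1, 2 and 3 in turn. Esr1, the oestrogen receptor, had 49.3, 48.6 and 67.9 CPM in the glands and 20.6 CPM in the tumour. Ghr, the growth hormone receptor, had 186, 406 and 412 CPM in the glands against 76.9 CPM. Pgr, the progesterone receptor, had 3.28, 18.1 and 43.9 CPM in the glands and 4 counts (0.143 CPM) in the tumour, but the glands' range, 3.69, was just wider than the gap of -3.68. Prlr, the prolactin receptor, had 369, 159.8 and 269 CPM in the glands and 112 CPM in the tumour, below every gland by less than 2-fold and above the other tumours (11.5 to 20.1 CPM). On the other side lay Igfals, which binds insulin-like growth factors in complexes, with 0, 2.77 and 2.31 CPM in the glands and 26.6 CPM in the tumour, a gap of 3.21 within the glands' range.

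Basal genes split. Of 17, 4 were lower and 3 higher, where 11.9 and 10.6% of all genes were, with a median log2 difference of -1.19. Without gland 1 the number lower was 9, and without gland 3 it was 7. Under upper-quartile scaling or thinning the number higher was 1. Trp63, the gene of p63 that maintains basal cells, had 27.6, 15.1 and 29.8 CPM in the glands and 10 counts (0.357 CPM) in the tumour, a log2 difference of -5.60. Myh11, smooth muscle myosin, had 71.9, 99.6 and 131 CPM in the glands against 3.46 CPM, and is also made by vessel walls. Col17a1 and Lama3, of the hemidesmosome and the basement membrane, were the other 2 lower genes, at 0.214 and 2.75 CPM in the tumour. Krt5 had 1.64, 6.37 and 9.84 CPM in the glands and 0.357 CPM in the tumour, while Krt14 had 2.63, 4.76 and 9.61 CPM in the glands against 19.9 CPM. Neither keratin was counted, and they lay on opposite sides of the glands. The 3 higher genes, Itga6 (106, 84.5 and 90.7 against 654 CPM), Itgb4 and Lamb3, encode a pair of integrin chains and a laminin chain of the hemidesmosome. Integrin alpha-6 is also found on luminal progenitors. Of 19 genes of squamous, cornified epithelium 8 passed the filter and 3 were higher (Sfn, Krt16 and Tgm1). Krt16 had 31 counts in the tumour and 1 in the glands, so it passed the filter only through the tumour.

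**Figure D2:**
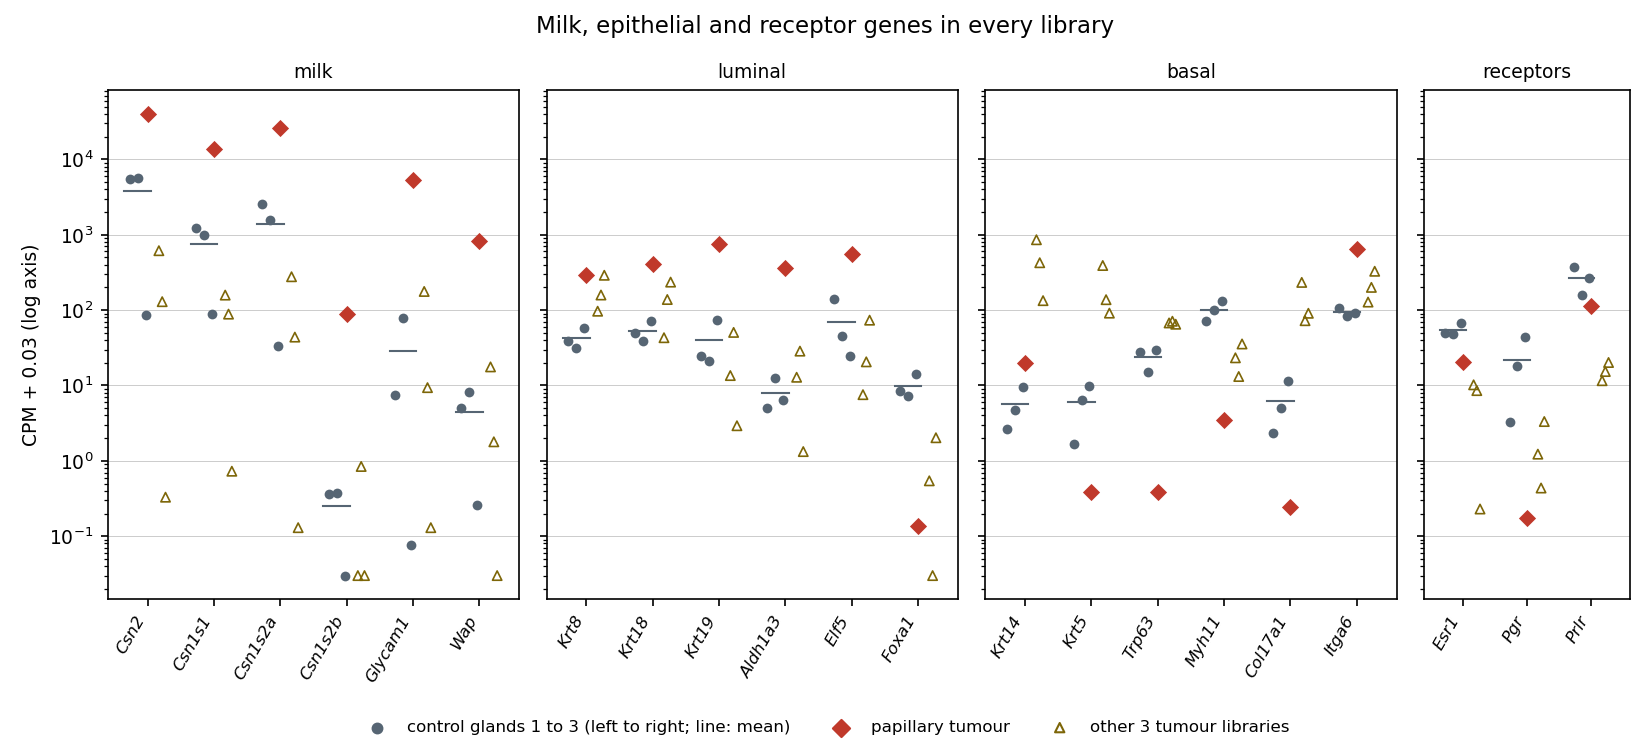
CPM + 0.03 on a log axis for milk, luminal, basal and receptor genes. Grey dots are control glands 1 to 3 from left to right with their mean as a line, red diamonds the papillary tumour, and open triangles the other 3 tumour libraries. The papillary tumour lies above every gland for the milk genes shown and for Krt8, Krt18, Krt19 and Aldh1a3, and below every gland for Foxa1, Trp63, Myh11, Col17a1, Esr1 and Pgr.

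Notch genes divided by role. Notch1, a receptor (chr2:26457903-26516663, minus strand, GRCm38), had 47.3, 55.4 and 54.1 CPM in the glands and 992 CPM in the tumour (exact 95% interval 980.4 to 1004), a log2 difference of 4.25 where the glands' own SD was 0.12. The other tumours had 66.7 to 149 CPM. Targets were higher: Nrarp, a feedback inhibitor that Notch induces, had 1.97, 2.70 and 4.11 CPM in the glands and 171 CPM in the tumour. Hes1, Heyl and Hey2, repressors that Notch switches on, had 41.6, 16.6 and 8.56 CPM in the tumour, against at most 7.88, 3.85 and 3.23 CPM in a gland. Hey1 lay above all glands with a gap of 0.87 and was not counted. The ligands were lower. Jag1 had 42, 42.2 and 40.5 CPM in the glands and 6.95 CPM in the tumour. Jag2 had 4.27, 5.38 and 12.1 CPM in the glands and 1.39 CPM in the tumour. Dll1 had 13.5, 5.03 and 7.39 CPM in the glands against 0.285 CPM. All 4 ligands named lay below every gland, the last of them Dll4, a ligand of endothelium, at 2.63, 3.33 and 3.10 CPM in the glands against 1.03 CPM. Notch2 and the DNA-binding partner Rbpj lay within the glands' range, and Notch4 was below it by 0.02. In all, 5 of 13 genes were higher and 4 lower, and 2 were lower after thinning. Notch3, listed with pericyte genes, was higher as well, at 13.1, 21.6 and 29.2 CPM in the glands and 93.5 CPM in the tumour.

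Cell division genes were higher almost throughout. Of 24 mitosis genes 22 were higher, none lower (median log2 difference 4.67), and the other 2, Kif11 and Kif23, lay above all glands by less than the glands' range. Of 23 DNA replication genes 19 were higher and none lower (median 3.15). Mki67, the proliferation marker Ki-67, had 7.88, 27.9 and 9.10 CPM in the glands and 366 CPM in the tumour, inside the span of the other tumours (239 to 409 CPM). Ccnb1, cyclin B1, had 0, 0.311 and 0.324 CPM in the glands and 21.9 CPM in the tumour. It passed the filter only through the tumour, so the mitosis count and median are partly set by the filter. Bub1, a checkpoint kinase, had 0, 0.622 and 0.324 CPM in the glands against 18.6 CPM. Rrm2, which supplies deoxynucleotides, and Cdt1, which licenses origins, had 22.5 and 14.6 CPM in the tumour and at most 1.37 and 0.870 CPM in a gland. With a prior count of 0.5 neither was counted, and Rrm2 was not counted with scaling over the 4 libraries alone.

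Regulators of G1, the phase before DNA replication, lay on both sides. Ccnd1, cyclin D1 (chr7:144929931-144939925, minus strand, GRCm38), had 7.55, 17.4 and 18.3 CPM in the glands and 657 CPM in the tumour, 45.6 times their mean, and 80.8 to 173 CPM in the other tumours. Ccnd2, cyclin D2, went the other way, with 62.4, 121 and 119 CPM in the glands and 6.78 CPM in the tumour. Ccne1, cyclin E1, Cdk6 and Rbl1, a relative of the retinoblastoma protein, were higher. Of the inhibitors, Cdkn1c (p57) had 22.3, 16.3 and 20.4 CPM in the glands and 0.535 CPM in the tumour, and Cdkn2c (p18) was lower as well, while Cdkn1b (p27) had 36.5, 43.2 and 35.9 CPM in the glands against 61.7 CPM, a gap of 0.51. Cdkn2a, the gene of p16 and p19ARF, had 5 counts in the tumour and 0 in the glands, below the filter. Of 18 such genes 4 were higher and 3 lower, where 10.6 and 11.9% of all genes were.

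**Figure D3:**
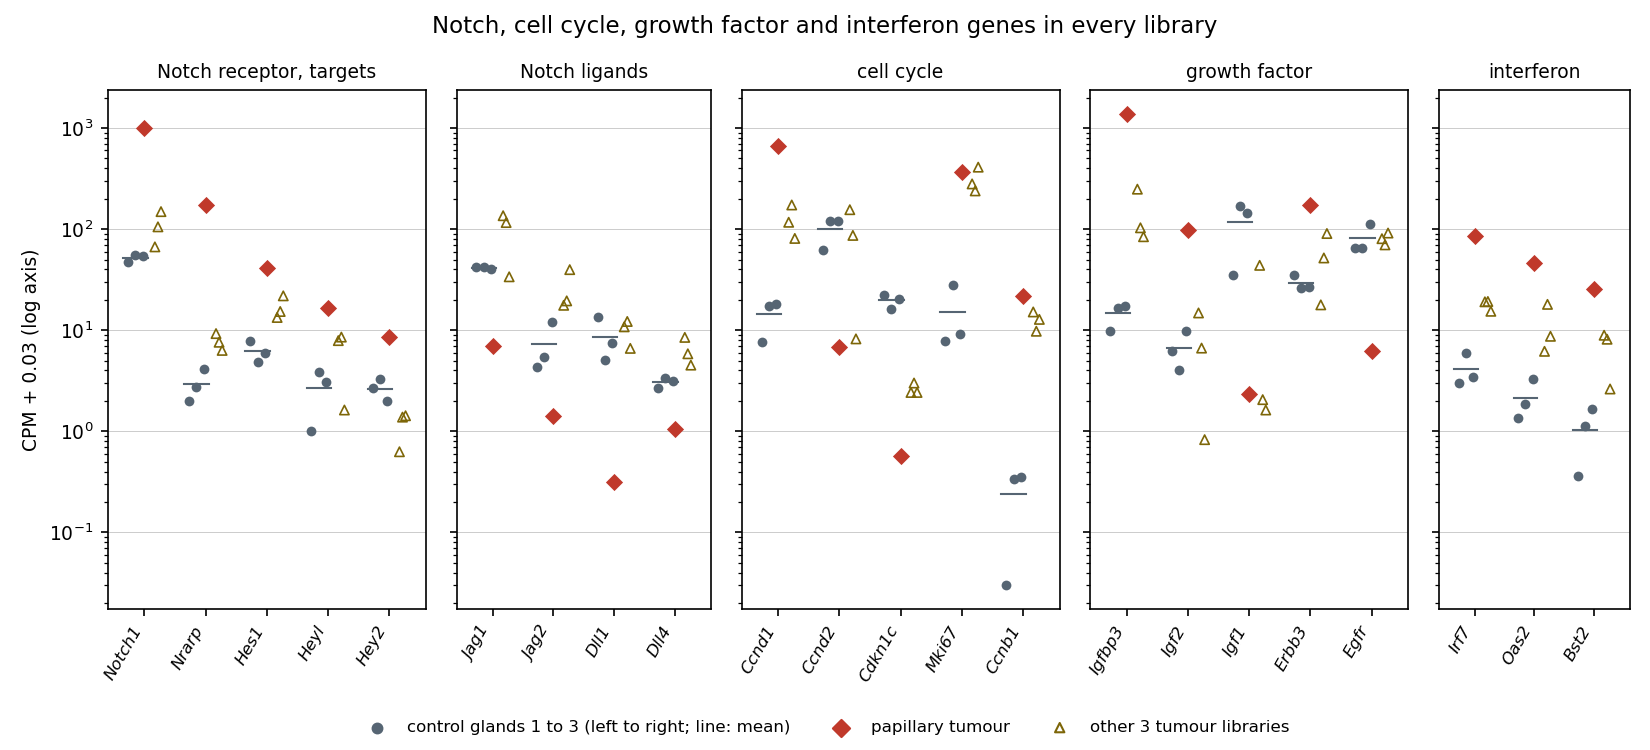
CPM + 0.03 on a log axis for Notch, cell cycle, growth factor and interferon genes, with grey dots for control glands 1 to 3 (line: mean), red diamonds for the papillary tumour and open triangles for the other 3 tumours. The Notch receptor and its targets lie above every gland and the ligands below; Ccnd1 (657 CPM) and Ccnd2 (6.78 CPM) lie on opposite sides of the glands.

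Growth factor genes lay on both sides of the glands. Igfbp3, which binds insulin-like growth factors in the extracellular space (chr11:7206086-7213923, minus strand, GRCm38), had 9.85, 16.7 and 17.3 CPM in the glands and 1372 CPM in the tumour, a log2 difference of 6.58 (glands' SD 0.45) and above the other tumours (84 to 248 CPM). Igf2, a fetal growth factor, had 6.24, 4.01 and 9.71 CPM in the glands against 98.3 CPM, and Irs2, an adaptor of the insulin and IGF receptors, 18.4, 24.5 and 29.1 CPM in the glands against 219 CPM. Igf1, made mostly by stroma and fat, was lower, with 35.1, 169 and 146 CPM in the glands and 2.32 CPM in the tumour. Of 13 genes of this family 3 were higher and 2 lower (4 lower without gland 1), and the receptor Igf1r had a gap of 0.60.

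Among 12 ErbB receptors and ligands 2 were higher and 4 lower, where 10.6 and 11.9% of all genes were. Erbb3, the kinase-poor partner receptor, had 35.1, 26.1 and 26.7 CPM in the glands and 173 CPM in the tumour, and Erbb2 (HER2) had 5.91, 8.24 and 10.3 CPM in the glands against 28 CPM. Egfr had 65, 65.4 and 112 CPM in the glands and 6.24 CPM in the tumour, while the other tumours had 69.8 to 91.4 CPM. The lower ligands were Nrg4, which fat secretes (19.4, 74 and 69.4 against 0.357 CPM), Nrg1 and Btc.

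In the Wnt pathway 3 of 21 genes were higher, near the share of all genes, and 5 lower. Wnt5b, a ligand, had 1.64, 4.07 and 2.68 CPM in the glands and 86.9 CPM in the tumour, and Sfrp1 and Sfrp2, secreted inhibitors, had 67 and 63.4 CPM. Axin2 and Apcdd1, targets and inhibitors of beta-catenin signalling, were lower: Axin2 had 7.55, 12.6 and 10.4 CPM in the glands and 6 counts (0.214 CPM) in the tumour. Among 21 genes of TGF-beta, activin and BMP signalling 1 was higher (Tgfb3, 37.1, 46.2 and 31.2 against 105 CPM) and 5 lower, among them Id1, a BMP target (19, 6.50 and 7.67 against 0.820 CPM), and Fst, follistatin (6.24, 10.2 and 6.79 against 0.357 CPM). After thinning, Tgfb3 was not counted, and without gland 1 or 2 the number higher was 3 or 4.

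Interferon-response genes were higher in 12 of 20, none lower, with a median log2 difference of 2.49. Irf7, the factor that amplifies type I interferon, had 2.96, 5.90 and 3.42 CPM in the glands and 84.6 CPM in the tumour. Oas2 and Oasl1, of the oligoadenylate synthetase family that senses double-stranded RNA, had 45.8 and 7.63 CPM against at most 3.24 and 0.370 CPM in a gland, and Oas1a (18.8 CPM) belongs to a family of near copies whose reads may be shared. Oasl1 passed the filter only through the tumour, so the number of interferon genes higher is partly set by the filter. Bst2, tetherin, had 0.328, 1.09 and 1.62 CPM in the glands and 25.8 CPM in the tumour. Ifit2, of the same response, had 7.23, 12.1 and 7.44 CPM in the glands and 5.35 CPM in the tumour and was not counted. Antigen presentation genes gave 1 lower and none higher of 16, and 5 lower without gland 1. The 1 was Nlrc5, the activator of MHC class I genes (23, 28.7 and 15.3 against 7.49 CPM), whose gap of -1.01 was not counted with a prior count of 5.

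Of 27 genes of Myc and the nucleolus 10 were higher and none lower (median log2 difference 1.27). Odc1, which makes polyamines, had 11.2, 17.9 and 26.9 CPM in the glands and 214 CPM in the tumour, and Cad, of pyrimidine synthesis, 3.28, 9.39 and 12.6 CPM in the glands against 57.2 CPM. Cad was not counted after thinning. Myc had 4.60, 10.7 and 15.7 CPM in the glands and 51.3 CPM in the tumour, a gap of 1.70 just under the glands' range of 1.74. Among 25 genes of the unfolded protein response 4 were higher and 1 lower. Xbp1, a factor that expands the secretory apparatus, had 47.3, 67 and 80.6 CPM in the glands and 399 CPM in the tumour, and Trib3 0.657, 0.808 and 0.786 CPM in the glands against 9.45 CPM. The number higher was 9 without gland 3, and 2 under median-ratio or upper-quartile scaling. Hspa5 (BiP), a main chaperone of the endoplasmic reticulum, had a gap of 0.94 and was not counted. The p53 targets (3 higher, 1 lower of 16) and hypoxia genes (2 and 3 of 16) were counted on both sides, where 10.6% of all genes were higher and 11.9% lower. Without gland 1 the p53 targets had 6 higher, and without gland 3 the hypoxia genes had 4. In these settings 2888 and 2567 of all 17892 genes were higher. Under median-ratio or upper-quartile scaling 1 hypoxia gene was higher. Plk2 had 18.7, 17 and 28.7 CPM in the glands and 118 CPM in the tumour. Bnip3, of mitophagy, had 117, 84.9 and 179 CPM in the glands against 25.5 CPM.

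**Figure D4:**
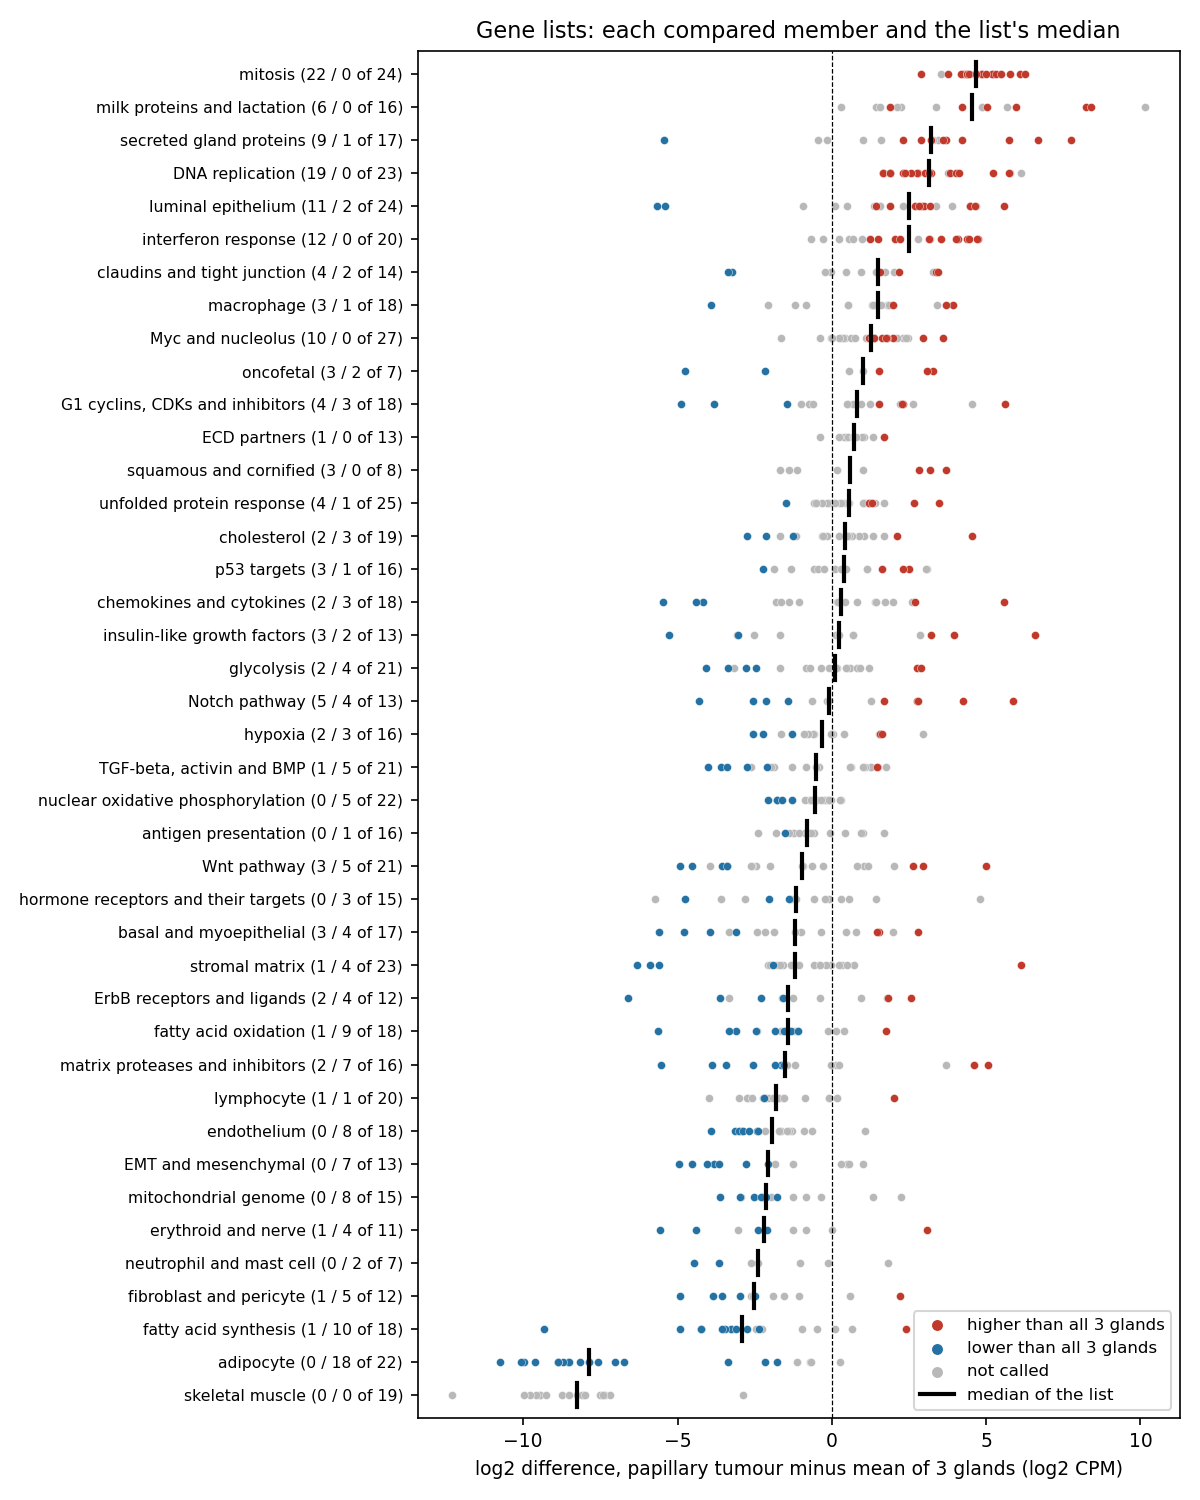
Log2 difference (papillary tumour minus the mean of 3 glands) of each compared member of 41 gene lists, 1 dot a gene, red or blue where higher or lower than all 3 glands by the gap rule and grey otherwise, with the list's median as a bar. Numbers in brackets give higher / lower of compared members. Mitosis (4.67) and milk (4.54) genes have the highest medians, adipocyte (-7.88) and skeletal muscle (-8.24) genes the lowest, and the muscle dots are all grey.

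Fat cell genes lay far below the glands. Of 22 adipocyte genes 18 were lower and none higher (median log2 difference -7.88), and their share of non-mitochondrial counts was 0.236% in the tumour against 1.23%, 2.33% and 2.11% in the glands. In bulk tissue, fewer cells of a type and less RNA per cell cannot be told apart. Adipoq, the hormone adiponectin, had 292, 353 and 372 CPM in the glands and 2 counts (0.0713 CPM) in the tumour, 5004-fold lower (counting interval 1385 to 41321). Lep, leptin, had 61.4, 163 and 86.2 CPM in the glands and 3 counts in the tumour. Plin1, which coats fat droplets, had 158, 345 and 263 CPM in the glands and 0.392 CPM in the tumour. Ucp1, the uncoupling protein of brown fat, had 213, 301 and 36.3 CPM in the glands and 0 counts in the tumour, at least 1829-fold lower. The 4 members not counted, Cidea (139, 101 and 35.5 CPM in the glands, 95.3 CPM in the tumour), Cd36 (828 CPM), Lpl (525 CPM) and Pnpla2 (115 CPM), include genes that secretory mammary epithelium also expresses, such as Cidea and Cd36. These 4 made up most of the list's summed level in the tumour, 1624 CPM, and so most of its 0.236% share.

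Lipid synthesis genes were mostly lower. Of 18 fatty acid synthesis genes 10 were lower and 1 higher. Dgat2, of triglyceride synthesis, had 96.2, 431 and 323 CPM in the glands and 0.250 CPM in the tumour, and Elovl6, which lengthens saturated chains, 211, 645 and 707 CPM in the glands against 14.9 CPM. Elovl5, which lengthens polyunsaturated chains, was the higher gene, with 84.1, 91.4 and 66.4 CPM in the glands and 425 CPM in the tumour. Fasn, fatty acid synthase, lay within the glands' range (2514 CPM). Of 18 oxidation genes 9 were lower, led by Cpt1b, the muscle and fat carnitine transferase (60.4, 46.4 and 56.1 against 0.963 CPM), and Ehhadh, of the peroxisome, was higher (8.54, 14.6 and 18.6 against 44.8 CPM), though not after thinning. Cholesterol genes gave 2 higher (4 without gland 2) and 3 lower of 19. For these and for glycolysis, the shares over all genes were 10.6% higher and 11.9% lower. In glycolysis 2 of 21 were higher and 4 lower: the glucose transporter Slc2a1 (GLUT1) had 4.60, 6.78 and 8.46 CPM in the glands and 48.4 CPM in the tumour, and Slc2a3 (GLUT3) 8.87, 6.68 and 5.08 CPM in the glands against 0.285 CPM.

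Of 15 genes of the mitochondrial genome 8 were lower and none higher. mt-Atp6, an ATP synthase subunit, had 2650, 2992 and 2741 CPM in the glands and 229 CPM in the tumour. The nuclear genes of oxidative phosphorylation were lower in 5 of 22 (none higher), namely Cycs, Sdha, Sdhb, Ndufs1 and Uqcrc2. Sdha, of succinate dehydrogenase, had 331, 243 and 281 CPM in the glands and 83.1 CPM in the tumour.

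Vessel and mesenchymal genes were low. Of 18 endothelial genes 8 were lower and none higher (median log2 difference -1.94), and 15 were lower without gland 1. Pecam1 (CD31) had 68, 72.3 and 107 CPM in the glands and 10 CPM in the tumour, and Prox1, of lymphatic vessels, 5.58, 3.98 and 1.66 CPM in the glands against 0.107 CPM. Prox1 was not counted after thinning. The summed level of the 18 genes was 329.7, 435 and 579.5 CPM in the glands and 106 CPM in the tumour. Of 13 mesenchymal genes 7 were lower and none higher, among them Zeb1 (165, 106 and 92.6 against 3.71 CPM) and Twist1 (4.93, 8.30 and 8.04 against 0.178 CPM), factors that repress epithelial genes and are also made by stroma. Vim, vimentin, had 119, 180.4 and 237 CPM in the glands and 71.9 CPM in the tumour, a gap under 2-fold.

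Of 23 matrix genes 12 lay below all 3 glands by some amount, against 31.2% of all genes, and 2 above them. By the gap rule 4 were lower, against 11.9% of all genes: Dpt, Dcn, Lum and Thbs2. Dcn, decorin, had 142, 354 and 449 CPM in the glands and 4.67 CPM in the tumour, and Dpt, dermatopontin, 31.5, 70.2 and 55.8 CPM in the glands against 0.499 CPM. Without gland 1 the number lower was 13, and under upper-quartile scaling it was 7. Collagen I (Col1a1) had 24, 74.9 and 81.6 CPM in the glands and 86.5 CPM in the tumour. Tnc, tenascin-C, a matrix protein of remodelling tissue, was the only matrix gene counted as higher. It had 9.52, 10.7 and 14.3 CPM in the glands and 809 CPM in the tumour, a gap of 5.81. The other tumours spanned 22.8 to 1407 CPM. Of 16 proteases and inhibitors 7 were lower, with the inhibitors Timp3 (148, 200 and 361 against 14.9 CPM) and Timp4 (13.1, 14.6 and 19.3 against 0.214 CPM), and Mmp12 and Mmp13 were higher. Mmp13, a collagenase, had 4 counts in all glands and 5.53 CPM in the tumour, and passed the filter only through the tumour. Fibroblast and pericyte genes were lower in 5 of 12, led by Gsn, gelsolin (325, 769.6 and 790.1 against 19.1 CPM), and 9 of 12 without gland 1.

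Immune genes were counted on both sides of the glands, where 10.6% of all genes were higher and 11.9% lower. By any amount, 12 of 18 macrophage genes lay above all glands and 2 below. Of 18 macrophage genes 3 were higher, Gpnmb (2.96, 9.32 and 4.11 against 76.2 CPM), Trem2 (0.328, 1.15 and 0.370 against 8.31 CPM) and Itgam, and 1 was lower, Cd163, of resident macrophages (50.6, 21 and 22.5 against 1.78 CPM). The number higher was 6, 8 and 5 without gland 1, 2 and 3 in turn, and 5 after thinning, and 3 were lower without gland 1. The sum of the list was 167, 359 and 201 CPM in the glands and 446 CPM in the tumour. Of 20 lymphocyte genes 1 was higher and 1 lower: Jchain, the joining chain of secreted IgA, had 13.8, 12.8 and 29.5 CPM in the glands and 69.8 CPM in the tumour, and Gzmb had 2 counts in the tumour. Neither was counted after thinning, and without gland 2 there were 3 higher and 3 lower, and without gland 3, 4 lower. Among cytokines, Ccl28, which draws IgA plasma cells to glands, had 4.60, 0.746 and 0.508 CPM in the glands and 65.5 CPM in the tumour. Cxcl9 and Cxcl12 were lower, the latter at 31.5, 79.8 and 96.5 CPM in the glands and 3.35 CPM in the tumour, and so was Cxcl15 (1 count in the tumour). Without gland 1 or gland 3 the number of cytokines lower was 5. None of 19 skeletal muscle genes was counted, although 18 lay below all glands, since glands 1 and 3 stood far above gland 2. Without gland 2 all 19 were lower. Acta1, skeletal actin, had 992, 2.42 and 2611 CPM in the glands and 0.143 CPM in the tumour. Sox10, a factor of nerve sheath and of some mammary epithelial cells, was higher (11.5, 19.9 and 12.6 against 122 CPM), while S100b, of nerve sheath and fat, was lower (10.5, 3.20 and 3.10 against 0.107 CPM). Of the 11 blood cell and nerve genes 4 were lower, and 8 without gland 1.

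Junction genes of epithelium gave 4 higher (8 without gland 1) and 2 lower of 14, where 10.6 and 11.9% of all genes were. Cldn8 and Cldn1, sealing claudins, had 111 and 68.4 CPM in the tumour and at most 15.4 and 12.8 CPM in a gland, and Ocln, occludin, was higher too. Under upper-quartile scaling Cldn1 was not counted, and 2 junction genes were higher. Among 7 compared oncofetal genes, Hmga1, a chromatin protein of embryonic cells with near copies in the genome, had 1.97, 1.83 and 0.971 CPM in the glands and 16 CPM in the tumour.

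Across all genes, the widest gaps on the higher side at 10 CPM or more in the tumour belonged to Wfdc5, Igsf1, Pip, Klk10, Rdh16, Csn1s2b, Pax6, Drd4, Wfdc3, Atp2b2, Klk6 and Myrf. Wfdc5, a protease inhibitor of the whey acidic protein family, (chr2:164176327-164182742, GRCm38) had 0 counts in the 3 glands and 207 CPM in the tumour, at least 3929-fold higher; the other tumours had 0 to 0.135 CPM. Wfdc3, of the same family, had 2.96, 2.11 and 0.555 CPM in the glands and 430.2 CPM in the tumour. Igsf1, an immunoglobulin-type membrane protein of the pituitary, had 0, 0.0932 and 0.0924 CPM in the glands and 66.2 CPM in the tumour. Rdh16, a retinol dehydrogenase, had 1 count in the glands and 30.1 CPM in the tumour, 1709-fold higher (counting interval 306 to 67593). Atp2b2, the calcium pump that loads milk with calcium, had 0.985, 0.777 and 0.508 CPM in the glands and 147 CPM in the tumour. Pax6 and Drd4, an eye and brain homeobox factor and a dopamine receptor, had 0 counts in the glands and 19.7 and 18.7 CPM in the tumour, at least 373-fold and 353-fold higher. Myrf, a membrane-bound factor known from myelinating cells, had 0, 0.559 and 0.0462 CPM in the glands and 70.8 CPM in the tumour.

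The 12 widest gaps on the lower side, among genes at 10 CPM or more in every gland, were those of Adipoq, Pck1, Car3, Plin1, Ucp1, Acss3, Tmem182, Ankef1, Lep, Paqr9, Dgat2 and Arxes2. Adipoq, Lep, Plin1, Pck1, Car3 and Ucp1 are well-known genes of fat cells. Pck1, which makes the glycerol backbone of fat, had 192, 179 and 519 CPM in the glands and 0.214 CPM in the tumour. Car3, the carbonic anhydrase of fat and slow muscle, had 1123, 2200 and 4917 CPM in the glands against 2.18 CPM. In the other tumours Adipoq spanned 0 to 7.26 CPM and Car3 0.199 to 33.3 CPM, below every gland as well.

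The median difference varied between chromosomes. This view was added after the values were seen, and used 9677 protein-coding genes at a mean of 5 CPM or more in the 4 libraries, of which 11.3% were higher and 11.8% lower. The median log2 difference was 0.16 over all of them, and 0.55 on chromosome 15, 0.51 on chromosome 2 and 0.42 on chromosome 6, the 3 highest medians. Genes counted as higher made up 17.2% of 372 genes on chromosome 15, 21.1% of 798 on chromosome 2 and 19.8% of 495 on chromosome 6. Genes counted as lower made up 9.68, 10.4 and 12.9% of them. The other 17 chromosomes had medians from -0.19 (X) to 0.33 (chromosome 11). In the other 3 tumours the median of chromosome 15 against the same glands was 0.17 to 0.45, that of chromosome 2 was -0.06 to 0.07 and that of chromosome 6 was -0.09 to -0.05. In the tumour 37.2% of all these genes exceeded all 3 other tumours. The share was 63.0% on chromosome 2, 57.8% on chromosome 6 and 46.2% on chromosome 15. No gland level enters these shares, but the genes were chosen by their mean over the tumour and the glands. The 3 chromosomes were picked by the tumour's medians against the glands, so the same tumour values enter both comparisons. The medians of chromosomes 2, 6 and 15 were positive in each of 4 equal parts of their genes by position. They ran from 0.22 to 0.91 on chromosome 2, from 0.32 to 0.51 on chromosome 6 and from 0.08 to 0.78 on chromosome 15. The lowest part of chromosome 15 lay below the 0.16 of all these genes. Genes of 1 chromosome are not independent of each other, and DNA copy number was not measured here. Chromosome 2 holds, among other genes named above, Notch1, Nrarp, Wfdc5, Wfdc3, Bub1, Itga6, Pax6 and Trib3, which were higher. It also holds Jag1, Dll4, Pck1, Gsn, Id1 and Ankef1, which were lower. Wnt5b, Pip, Atp2b2 and Gpnmb, which were higher, and Lep, Ccnd2, Timp4, Cd163, Cycs and Slc2a3, which were lower, lie on chromosome 6. Neither list is complete, and named genes of chromosome 15 are not listed.

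**Figure D5:**
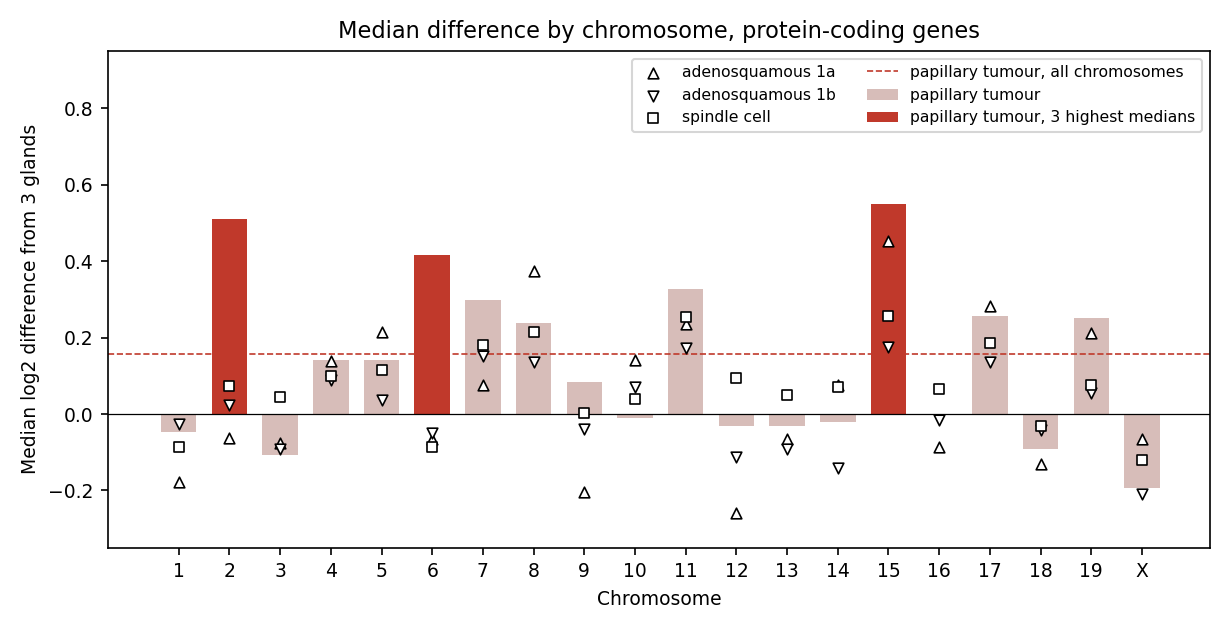
Median log2 difference from the 3 glands by chromosome, over protein-coding genes at a mean of 5 CPM or more. Bars show the papillary tumour, dark for its 3 highest medians (0.55, 0.51 and 0.42), the dashed line its median over all chromosomes (0.16), and open symbols the other 3 tumour libraries, which lie near 0 on chromosomes 2 and 6.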

How the data were processed

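RNA was extracted with Trizol, treated with DNase I, and made into TruSeq v2 libraries (a kit that does not mark strand) sequenced as pairs of 75 bases, per the labels' protocols. STAR 2.5, RSEM 1.3, limma and build GRCm38 are named, with no role, per the submitters' processing notes. The authors deposited estimated counts per gene, as far as the values show: the column is headed TPM but sums to 5148438 to 35631279 per library, not to 1000000. These expected counts were rounded to whole numbers. Genes with too few counts were removed (filterByExpr, edgeR 4.0.16, minimum count 10, over the 4 libraries), leaving 17892 of 50600. A gene could pass this filter through 1 library alone. CPM used trimmed-mean factors over all 7 libraries, with a prior count of 2 on the log2 scale. No p-value was computed, since the tumour group holds 1 library. The spread is that of 3 glands, and nothing says that they came from separate animals. Without strand, reads of a gene and its antisense partner cannot be told apart. Counting intervals cover counting error only.

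Gene lists, the gap rule and the naming rule (the 12 widest gaps each way at 10 CPM or more; in each list the 2 widest gaps on the larger side and 1 on the other; a list of fixed genes) were chosen with earlier results of these data known. Other genes in the text were named after their values were seen. Coordinates come from the GENCODE M21 annotation of GRCm38. Alternatives changed the scaling, prior, filter, gap, glands and depth. Some genes of the lists are counted but not reported here by name.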

Additional observations from a re-analysis of the deposited data

Results flagged for a closer look

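For 10 genes that the gap rule counted, the directions in the papillary tumour and in the other tumours were opposite. They come from the lists or the named genes, except Apod, which was added after its values were seen. The papillary tumour lay on one side of all 3 glands and each of the other 3 tumour libraries on the other side. The difference between tumours was not tested, and no share over all genes was computed. Log2 differences from the glands are given for the papillary tumour first, and then for adenosquamous tumours 1a and 1b and the spindle cell tumour. Higher only in the papillary tumour among the 4 were Apod, a lipid-binding lipocalin (7.12, then -2.96, -3.87 and -1.29), Elovl5 (2.41, then -1.10, -1.64 and -1.11), Ehhadh (1.75, then -2.02, -2.24 and -1.44) and the Notch target Hey2 (1.69, then -1.90, -0.87 and -0.82).

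Lower in the papillary tumour and higher in the other 3 were the basal genes Trp63 (-5.60, then 1.54, 1.61 and 1.48), Col17a1 (-3.95, then 5.49, 3.80 and 4.13) and Lama3 (-3.12, then 3.05, 3.30 and 1.18). The Notch ligands Jag2 (-2.14, then 1.41, 1.56 and 2.58) and Dll4 (-1.43, then 1.46, 0.93 and 0.56) showed the same split, as did P4ha2, a collagen hydroxylase (-2.57, then 1.57, 1.26 and 0.71). Krt5, which the gap rule did not count, had the same order.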

How the results depend on the processing

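No paired analysis was possible because the papillary tumour is 1 library and no label used here links it to a gland. Across the 15 alternatives 103 of the 124 named genes that were counted kept their call and 21 lost it under at least 1. Of the 21, 9 lost it only at a gap of 2, and none turned to the opposite call. Under this rule, fewer glands, another filter or no requirement on the glands' range cannot remove or reverse a call. Only the changes of scaling, prior, gap and depth could remove one. A gene not compared under an alternative was taken as keeping its call there. The number higher, 1891, became 853 at a gap of at least 2 and 3915 with gland 2 as the only control, and the number lower, 2125, became 1304 and 4940 there and 1120 among genes at 10 CPM or more in 1 library. Leaving out 1 gland gave 2490 to 2888 higher and 2683 to 3437 lower, which follows from the rule, since fewer glands must be passed. Upper-quartile scaling moved the median over all genes from 0.07 to -0.09 and leaving out the mitochondrial genes moved it to 0.03. Leaving them out and thinning the libraries to one non-mitochondrial total, done together, gave -0.10. Without the requirement on the glands' range 14 milk genes were higher and 18 skeletal muscle genes lower. Among genes at 10 CPM or more in 1 library the median of the Wnt list turned to 0.092 and that of the TGF-beta, activin and BMP list to 1.02, as that filter drops their low members. Gland 1 is the shallowest, so 0 counts there allow up to 0.985 CPM, against 0.107 CPM in the tumour.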

Other observations

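Neighbouring genes were examined after the values were seen. Of 13 kallikrein genes (secreted serine proteases, named Klk with a number) on chromosome 7, looked at because Klk10 and Klk6 were among the widest gaps, 7 passed the filter. Klk6, Klk10, Klk13 and Klk14 passed only through the papillary tumour, so no count of higher genes is given. Klk10 had 0, 0.155 and 0.324 CPM in the glands and 92 CPM in the tumour, Klk11 0, 0.435 and 0.832 CPM in the glands against 25.8 CPM, and Klk13 0, 0.0622 and 0 CPM in the glands against 13.8 CPM. Klk6 had 0 counts in the glands and 15.4 CPM in the tumour, at least 292-fold higher, and 0.0997 to 50 CPM in the other tumours. Klk8, which lies between Klk10 and Klk6, had 7 counts in the tumour and 37 in the glands, and Klk14 had 24 and 0. A cluster of whey acidic protein domain inhibitors on chromosome 2 holds 16 genes, of which 5 passed the filter and 8 had no count in the 4 libraries. It was looked at for the same reason (Wfdc5 and Wfdc3), and Wfdc12 had 0, 0.186 and 0.185 CPM in the glands and 11.9 CPM in the tumour.

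Around Ccnd1, 6 other protein-coding genes within 400 kb were compared. Ano1, a calcium-activated chloride channel, was higher (103, 70.5 and 58.1 CPM in the glands, 522 CPM in the tumour, 47.4 to 125 CPM in the other tumours). Fgf15 passed the filter only through the tumour, at 0.713 CPM in the tumour and 0 counts in the glands. Around Notch1, 4 of 17 were higher and 1 lower, with no minimum level beyond the filter. The 21.1% higher over chromosome 2 covers only genes at a mean of 5 CPM or more, so the 2 shares are not of like sets. Apod, outside every list, had 15.1, 30.6 and 21.1 CPM in the glands and 2982 CPM in the tumour, 134 times their mean.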
